A study of Homo sapiens with 6 samples.

Results

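The genes described here are 33 inflammatory cytokines, chemokines, cytokine receptors, NF-kB subunits and NF-kB target genes, chosen by gene symbol from a table of 60591 genes. All 33 had a row in the table. RNA was measured in MDA-MB-231 cells, a line derived from human breast cancer that lacks hormone receptors and HER2, in the variant described as bone-homing. The cells were held in a 3-dimensional loading model without flow (static, 0 mL/min) or under fluid shear at 1 mL/min (low flow) or 15 mL/min (high flow). There were 2 libraries per condition, all from this 1 cell line and all labelled as the same experiment, and the labels do not say whether the 2 came from separate cultures. P-values therefore measure only the spread between these libraries, which may be technical. The sources used here give no length of exposure to flow.

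NF-kB is a family of paired transcription factors. In resting cells the pairs are held in the cytoplasm by inhibitor proteins, the IkB family. Signals from IL-1, TNF or microbial products lead to destruction of the inhibitors, the pairs enter the nucleus, and they switch on cytokines, chemokines, survival genes and their own inhibitors, which closes a feedback loop. MDA-MB-231 cells are known for high basal NF-kB activity and for secreting neutrophil-attracting chemokines and growth factors of myeloid cells.

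Library totals ran from 17822642 counts in static replicate 1 to 53279537 in high flow replicate 2, and both static libraries were shallower than the other 4. By the lane marks in their column names, both high flow libraries came from a different sequencing lane than the other 4. In either comparison with high flow, the effects of lane and of flow cannot be told apart. Across 15234 genes the log2 fold change of high flow against low flow ranked with the GC content of the transcript (Spearman rho = 0.593). The same rho was 0.402 for high flow against static and 0.089 for low flow against static. Replicates differed well beyond counting noise, with a chi-square per degree of freedom of 17.5 between the static libraries, 33.2 at low flow and 13.3 at high flow. The labels call the cells endothelial. The endothelial markers CDH5 and CLDN5 were at 0.0869 CPM (CPM is a count scaled to the depth of its library) or less in every library, while PECAM1 lay between 8.33 and 14.1 CPM and TIE1 between 29.9 and 44.2 CPM. The 6 markers of the line, among them VIM and CD44, summed to between 6510 and 8260 CPM. Of 6 leukocyte markers FCGR3A and TYROBP had 0 counts in every library and PTPRC had at most 0.169 CPM. CD14 was the highest of the 6, between 0.609 and 1.54 CPM, and all 6 summed to between 0.913 and 1.73 CPM. The 6 endothelial markers summed to 39.2 to 49.2 CPM in static, 50.5 to 58.3 in low flow and 54.2 to 56.5 in high flow. Against static PECAM1 was higher by edgeR under low flow (log2 fold change 0.70, adjusted p = 0.00778) and high flow (0.55, adjusted p = 0.0139). TIE1 and TEK were also tested and did not pass an adjusted p of 0.05. The part of these markers in the results was not tested.

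The promoters of several members carry the binding motif of the factor that gives the group its name, and the short stretches around it are shown for these members. RefSeq promoter windows (build GRCh38.p14) of 300 bases, from 250 before to 50 after the annotated start, were held for 24 of the 33 members. Both strands were searched for the NF-kB consensus, a motif of 10 letters, and 11 of the 24 windows (45.8%) held it, against 1562 of 27305 windows of the same length in all (5.7%). The list was drawn up around NF-kB and its targets, so this share is a description of the list. A match says only that the letters are present. In the windows of 30 bases that follow, written 5′ to 3′ on the strand of the gene, capitals mark the match. Where a run of 11 capitals is shown, the motif matched on both strands with an overlap of all but 1 base.
CXCL1, chr4:73869305-73869334, plus strand: tggaactccGGGAATTTCCCtggcccgggg
CXCL2, chr4:74099253-74099282, minus strand: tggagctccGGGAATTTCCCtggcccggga
CXCL3, chr4:74038748-74038777, minus strand: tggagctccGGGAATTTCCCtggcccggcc
CXCL5, chr4:73998748-73998777, minus strand: atgagttcaGGGAATTTCCCcagcatccca
CCL20, chr2:227813753-227813782, plus strand: tgatcaatggGGAAAACCCCatgtggcaac
IL6, chr7:22727117-22727146, plus strand: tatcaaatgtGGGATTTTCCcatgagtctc
IL32, chr16:3065295-3065324, plus strand: ctgtactcaGGGAGTTTCCCcagccagctg
NFKB1, chr4:102501300-102501329, plus strand: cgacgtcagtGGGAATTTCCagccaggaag
NFKBIA, chr14:35404811-35404840, minus strand: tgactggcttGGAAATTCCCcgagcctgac
TNFAIP3, chr6:137867182-137867211, plus strand: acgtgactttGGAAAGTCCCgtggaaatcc
TNFAIP3, chr6:137867194-137867223, plus strand: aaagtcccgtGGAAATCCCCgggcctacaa
BIRC3, chr11:102317275-102317304, plus strand: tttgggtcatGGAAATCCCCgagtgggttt
BIRC3, chr11:102317339-102317368, plus strand: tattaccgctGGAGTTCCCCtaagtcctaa

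CXCL1, CXCL2 and CXCL3, of the chemokine cluster on chromosome 4, shared the same run of 11 capitals, starting at position -79, -78 and -79 from the start, and CXCL5 held it at -91. In 10 of the 11 promoters the matches lay within the last 100 bases before the start, and those of BIRC3 began at -199 and -135. The looser pattern GGGNNNNNCC, which contains the consensus, was in 20 of the 24 windows (83.3%) and in 58.0% of all windows. The AP-1 element TGANTCA was in 2 of the 24, those of CXCL8 and IL1A, and in 7.8% of all windows. No match in this window says nothing about sites elsewhere or about near matches inside it. The windows of CXCL8 and ICAM1 hold tggaatttcc and tggaaattcc, which miss the consensus by their first letter. CXCL8, IL1A, IL1B, IL1R1, IL24, IL7R, CSF2, TNF, NFKB2, TNFAIP2, ICAM1, TRAF1 and IRAK2 had none of the full consensus in the window. Windows were not held for CXCL16, CCL2, CCL5, IL18, LIF, CLCF1, CSF3, NFKBIE and RELB.

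**Figure D1:**
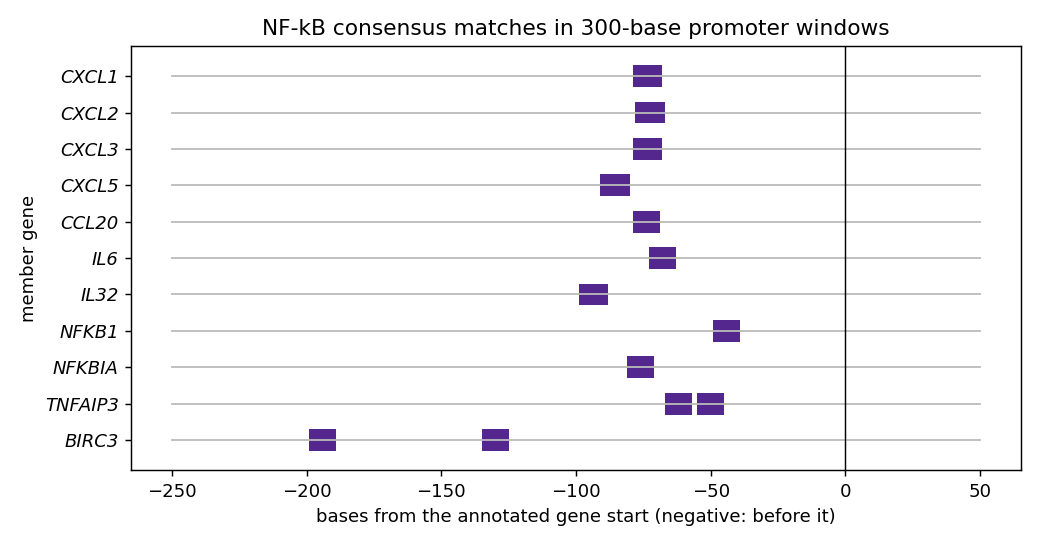
Positions of the NF-kB consensus (bars) in the promoter windows of the 11 members that hold it, with the distance from the annotated start in bases on the x axis and 1 row per gene. The matches of 10 genes lie within 100 bases before the start, and BIRC3 has its pair farther out, beginning at -199 and -135.

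Most of these genes were expressed. Of the 33 members 17 had a mean of at least 10 CPM over the 6 libraries, 11 lay between 1 and 10 CPM, and 5 were lower. Per transcript length, on the RPKM scale (CPM per 1000 exon bases), the highest static levels were those of NFKB2 at 24.8, LIF at 23.97, CXCL8 at 23.6 and NFKBIA at 18.7, followed by TNFAIP2 at 14.5 and IL1B at 12.7. IL6 stood at 1.60 RPKM, IL1A at 0.671 and TNF at 0.193. TNF, itself an activator of NF-kB, was thus among the rarest transcripts of the list. CXCL5, CCL2 and CCL20 did not pass the expression filter and were not tested. CXCL5 had 1 count in static replicate 2 and in low flow replicate 2 and 0 in the other 4 libraries. CCL2, which attracts monocytes, had 0 to 7 counts per library, and CCL20, the ligand of CCR6, also had 0 to 7. In bulk RNA, fewer cells that express a gene and less RNA of it per cell cannot be told apart, which holds for every value here.

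**Figure D2:**
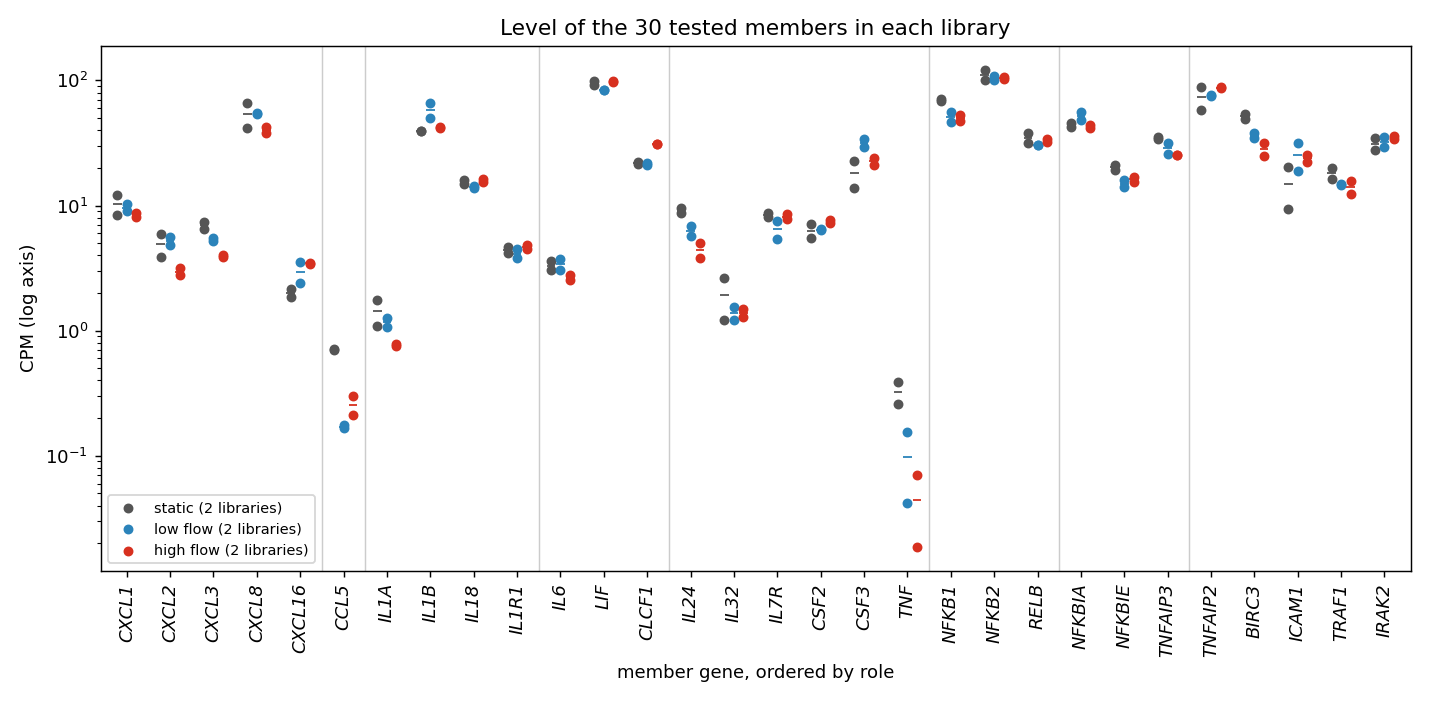
Level in CPM (log axis) of the 30 tested members in each of the 6 libraries, with points for libraries, short lines for the mean of 2 and colours for static, low flow and high flow. BIRC3, CXCL3 and IL24 step down from static to low flow to high flow, and IL1B is highest in both low flow libraries.

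Of the 30 tested members, low flow against static had 2 higher and 4 lower at an adjusted p under 0.05. That is 20% of the members in either direction, against 6.74% of all 20676 genes tested, of which 3.25% were higher and 3.49% lower. High flow against static had 2 higher and 7 lower, 30% of the members, against 13.9% of all genes, of which 7.49% were higher and 6.43% lower. High flow against low flow had 1 higher, 3.33% of the members, against 0.334% of all genes, of which 0.242% were higher, and 0 lower, against 0.0919%. In that comparison 10 of the 30 had an unadjusted p under 0.05, as did 9.62% of all genes, and DESeq2 also called 0 lower. Both comparisons with static share the static libraries. TNF passed the expression filter through the static libraries alone, so it had to be higher in static. CCL5 passed through these and 1 high flow library, so its fall against static was fixed in part by the filter. Among the 28 members with a mean of at least 1 CPM the counts were 2 higher and 3 lower for low flow and 2 higher and 6 lower for high flow. That is 17.9% and 28.6% of the 28 in either direction, against 8.63% and 17.1% of all 15524 tested genes of that level. The median log2 fold change of these 28 was -0.095 in low flow and -0.075 in high flow, with 0.011 and 0.004 for all tested genes of that level. In all, 13 members were called in at least 1 comparison and 17 in none, and the same count was not made over all genes.

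**Figure D3:**
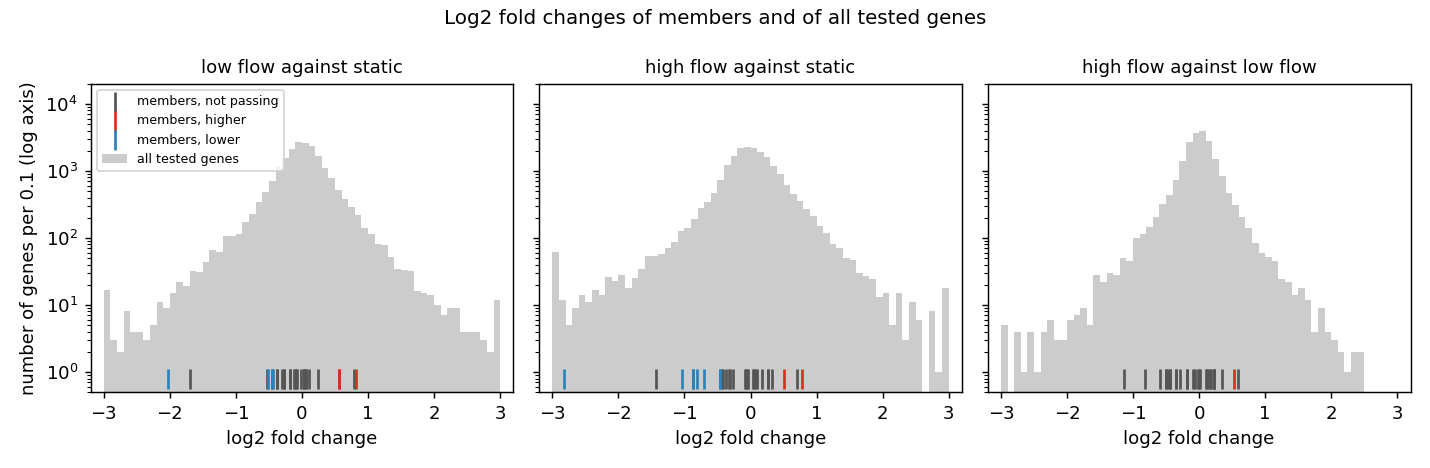
Log2 fold changes of all 20676 tested genes (grey bars, number of genes per 0.1 on a log axis, with values beyond 3 in either direction drawn in the end bars) and of the 30 tested members (ticks, coloured where called), 1 panel per comparison. Most members lie on both sides of 0 within the bulk of all genes. In the thin left tail, TNF, at under 0.4 CPM, is farthest to the left under high flow, and CCL5, also below 1 CPM, under low flow.

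The CXC chemokines went different ways. CXCL1, CXCL2, CXCL3 and CXCL8 attract neutrophils through the receptors CXCR1 and CXCR2, and CXCL16, which is made as a membrane protein, binds CXCR6. CXCL3 had 6.51 and 7.43 CPM in static, 5.51 and 5.24 in low flow and 3.91 and 4.04 in high flow. Its 3 groups did not overlap. Under high flow CXCL3 fell 1.76-fold, a log2 fold change of -0.81 with a standard error (SE) of 0.17 and an adjusted p of 0.00589 by edgeR, and under low flow its change was -0.38 (adjusted p = 0.185). The difference between the flow rates, -0.43, did not pass (adjusted p = 0.397). CXCL2 had 5.90 and 3.91 CPM in static, 5.64 and 4.86 in low flow and 2.76 and 3.17 in high flow. Both high flow libraries were below the other 4, and static and low flow overlapped. CXCL2 fell by 0.71 on the log2 scale against static (SE 0.22, adjusted p = 0.0355), and its difference from low flow, -0.82, did not pass (adjusted p = 0.127), though it did without low flow replicate 2 (-0.92, adjusted p = 0.0126) and with no expression filter (0.00952).

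CXCL8, the gene of interleukin 8, had 65.9 and 41.6 CPM in static, 55.2 and 53.8 in low flow and 38.2 and 42.3 in high flow. The 2 static libraries lay farther apart than the means of the groups. Its log2 fold change of high flow against static was -0.41, with a 95% interval from -0.84 to 0.02 (adjusted p = 0.185). It was -0.09 with offsets for transcript length and GC content, -0.05 without static replicate 1, and -0.71 without static replicate 2, where it passed (adjusted p = 0.00945). With no expression filter edgeR called CXCL8 lower under high flow against static as well. Against low flow the value of CXCL8 was -0.44 (adjusted p = 0.499), and it passed with no expression filter (0.0155). CXCL1 ran from 8.17 CPM in high flow replicate 2 to 12.1 in static replicate 1 and passed in no comparison. CXCL16 had 2.15 and 1.87 CPM in static, 2.39 and 3.51 in low flow and 3.49 and 3.42 in high flow. It was the member of this family that rose, 1.72-fold under high flow (log2 fold change 0.79, SE 0.24, adjusted p = 0.0391).

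Of the 50-base stretches in the longest coding transcript of CXCL2, 9.2% also occur in CXCL1 or CXCL3, so the reads of these 3 genes are not fully separate and their values are uncertain to that extent. The call of CXCL3 was lost without static replicate 2 (adjusted p = 0.099) and without high flow replicate 1 (0.0904). The call of CXCL2 was lost once length and GC offsets were used (adjusted p = 0.12) and without static replicate 1 (0.312) or either high flow library (0.258 and 0.101), and without static replicate 1 its log2 fold change was -0.40. CXCL16 lost its call with DESeq2 (adjusted p = 0.0719), with the offsets (0.0798) and without any of the 4 libraries compared (static 0.0823 and 0.258, high flow 0.198 and 0.142).

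The promoter of CXCL3 (chr4:74038640-74038939, minus strand) is given in full because CXCL3 had the third smallest p among the members with a window, with the consensus match in capitals.
CXCL3: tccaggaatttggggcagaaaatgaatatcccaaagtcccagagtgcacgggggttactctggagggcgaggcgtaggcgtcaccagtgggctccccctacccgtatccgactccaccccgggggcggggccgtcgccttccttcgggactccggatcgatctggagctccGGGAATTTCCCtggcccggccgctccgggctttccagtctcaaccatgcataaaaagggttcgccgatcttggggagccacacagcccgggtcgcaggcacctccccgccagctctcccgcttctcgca

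CCL5, which attracts T cells and monocytes, was the tested CC chemokine and was rare. It had 13 and 16 counts in static, 8 and 8 in low flow and 9 and 16 in high flow, in libraries of very different depth. Of the 50-base stretches in its longest coding transcript 16.0% also occur in other genes, so these few reads are not fully separate from theirs. On the CPM scale the counts were 0.717 and 0.696, then 0.176 and 0.166, then 0.211 and 0.300. Both static libraries were above the other 4. CCL5 passed the expression filter through these and 1 high flow library, so its fall against static was fixed in part by the filter. The values that follow are a description only, and DESeq2 gave no adjusted p for CCL5 in low flow against static. From summed counts low flow over static gave a ratio of 0.242, with an exact 95% interval of 0.123 to 0.461 that covers counting error only, and high flow over static gave 0.369 (0.208 to 0.653). CCL5 fell under low flow (log2 fold change -2.03, SE 0.52, adjusted p = 0.0271), and under high flow the adjusted p was 0.0585, and 0.0292 with only the 4 libraries compared. The call was lost without static replicate 1 (adjusted p = 0.0996), static replicate 2 (0.171), low flow replicate 2 (0.17) or high flow replicate 2 (0.0517).

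In the IL-1 family low flow stood out for IL1B. IL1B encodes interleukin 1 beta, an activator of NF-kB that signals through the receptor gene IL1R1. Its values were 39.1 and 39.5 CPM in static, 50.1 and 66.4 in low flow and 41.4 and 42.7 in high flow. Both low flow libraries were above the other 4. IL1B rose 1.48-fold under low flow (log2 fold change 0.57, SE 0.12, adjusted p = 0.0122). Under high flow the change was 0.10, with an interval of -0.16 to 0.35 (adjusted p = 0.636), and the difference between the flow rates, -0.47 with an interval of -0.72 to -0.22, had an adjusted p of 0.135. That difference passed without low flow replicate 1 (-0.66, adjusted p = 0.000439) and with no expression filter (0.00511). The low flow call of IL1B had an adjusted p of 0.0709 when static replicate 1 was left out and 0.118 when static replicate 2 was. Leaving out low flow replicate 2 gave a log2 fold change of 0.35 (adjusted p = 0.194).

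IL1A, the related interleukin 1 alpha, had 1.76 and 1.09 CPM in static, 1.27 and 1.06 in low flow and 0.749 and 0.788 in high flow. Both high flow libraries were the lowest, but the change against static, -0.87, did not pass (SE 0.34, adjusted p = 0.0958). IL18, which is made as an inactive precursor like IL1B, stayed between 13.9 and 16.3 CPM. The receptor IL1R1 stayed between 3.80 and 4.84 CPM. Neither passed in any comparison, and the 95% intervals against static ran from -0.38 to 0.30 for IL18 and from -0.50 to 0.47 for IL1R1 over both flow rates.

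The IL-6 family, whose receptors share the gp130 chain (gene IL6ST), was abundant through LIF and moved through CLCF1. CLCF1, which signals through the ciliary neurotrophic factor receptor complex, had 21.6 and 22.1 CPM in static, 21.95 and 21.3 in low flow and 31.3 and 30.9 in high flow. The static and low flow libraries overlapped, and both high flow libraries were above them. CLCF1 rose 1.42-fold against static (log2 fold change 0.51, SE 0.11, adjusted p = 0.00559) and 1.44-fold against low flow (0.53, SE 0.10, adjusted p = 0.0289). It was the member that passed between the flow rates. Its transcript has a GC content of 57.1%. With the length and GC offsets the value against low flow was 0.43 and no longer passed (adjusted p = 0.0918), and the value against static was 0.42 and passed (0.0167). Against static the call was also lost without static replicate 2 (adjusted p = 0.0517) and without high flow replicate 1 (0.0844). Against low flow it was lost with only the 4 libraries compared (0.0552), without high flow replicate 1 (0.47) and without high flow replicate 2 (0.288). In that comparison the fold change without either library stayed between 0.52 and 0.53.

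LIF, leukaemia inhibitory factor, was the most abundant cytokine of the list by CPM. It had 98.2 and 92.1 CPM in static, 84.4 and 84.2 in low flow and 98.8 and 97.7 in high flow. Low flow was below both other conditions, and no comparison passed (low flow against static -0.17, adjusted p = 0.272). IL6 had 3.58 and 3.04 CPM in static, 3.73 and 3.03 in low flow and 2.76 and 2.54 in high flow. The high flow libraries were the lowest, with a log2 fold change of -0.32 against static and an interval of -0.78 to 0.14.

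Among the other cytokines IL24 was called lower under high flow and CSF3 higher under low flow, and for neither did the difference between the flow rates pass. IL24, a cytokine of the IL-10 family that signals through receptors of the IL-20 type, had 9.48 and 8.69 CPM in static, 6.89 and 5.69 in low flow and 3.84 and 4.99 in high flow. Its 3 groups did not overlap. IL24 fell 2.05-fold under high flow (log2 fold change -1.03, SE 0.18, adjusted p = 0.00163), while under low flow the value of -0.53 did not pass (adjusted p = 0.0757). The difference between the flow rates, -0.51, did not pass either (adjusted p = 0.346). The call was lost without high flow replicate 1, where the log2 fold change was -0.86 (adjusted p = 0.0638). The receptor subunit IL20RB, from the receptor list described further on, fell under both flow rates.

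The promoter of IL24 (chr1:206897193-206897492, plus strand) is given because IL24 had the second smallest p of the members against static, and it holds no consensus match in this window.
IL24: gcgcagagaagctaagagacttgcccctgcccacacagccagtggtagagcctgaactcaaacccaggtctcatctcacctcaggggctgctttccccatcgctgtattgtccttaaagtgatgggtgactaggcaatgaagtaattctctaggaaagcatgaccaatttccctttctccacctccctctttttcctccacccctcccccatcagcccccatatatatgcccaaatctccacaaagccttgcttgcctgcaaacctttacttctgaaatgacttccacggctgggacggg

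CSF3, which encodes the granulocyte growth factor G-CSF, had 22.5 and 13.8 CPM in static, 29.3 and 34.3 in low flow and 21.0 and 23.98 in high flow. Low flow was above the other 4 libraries, and static and high flow overlapped. CSF3 rose 1.77-fold under low flow (log2 fold change 0.82, SE 0.20, adjusted p = 0.0485). The call was lost with only the 4 libraries compared (adjusted p = 0.0585) and without static replicate 2 (0.126), low flow replicate 2 (0.184), high flow replicate 1 (0.0557) or high flow replicate 2 (0.0581). Without static replicate 2 the log2 fold change was 0.50. Under high flow the value of CSF3 was 0.32 (adjusted p = 0.331), and it passed without static replicate 1 (0.71, adjusted p = 0.0137) and with no expression filter (0.0433). The difference between the flow rates, -0.50, had an adjusted p of 0.455, and 0.00851 with no expression filter. CSF2, the gene of GM-CSF, lay between 5.52 and 7.72 CPM, with the high flow libraries highest and no comparison passing.

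TNF had 7 and 6 counts in static, 7 and 2 in low flow and 3 and 1 in high flow. On the CPM scale the static libraries had 0.386 and 0.261, low flow 0.154 and 0.0416 and high flow 0.0702 and 0.0188. Static was above both flow conditions, in libraries with fewer reads. TNF passed the expression filter through the static libraries alone, so its fall against static was fixed in part by the filter. The values that follow are a description only, and DESeq2 gave no adjusted p for TNF in high flow against static. High flow over static gave a ratio of summed counts of 0.132, with an exact 95% interval of 0.0313 to 0.427 for counting error only. TNF was called lower under high flow (adjusted p = 0.0439), and the call was lost with the offsets (0.0597) and without any of the 4 libraries compared (static 0.198 and 0.177, high flow 0.142 and 0.251). IL32 was dominated by static replicate 1, at 2.65 CPM against 1.22 to 1.54 in the other 5 libraries. IL7R, the alpha chain of the interleukin 7 receptor, had 8.66 and 8.09 CPM in static, 7.49 and 5.38 in low flow and 8.52 and 7.75 in high flow. Neither passed in any comparison.

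The subunits of NF-kB split by gene. NFKB1 and NFKB2 encode precursors that are cut to DNA-binding subunits, and RELB pairs with the product of NFKB2 in the alternative pathway. NFKB1 had 70.9 and 68.1 CPM in static, 55.5 and 46.2 in low flow and 47.4 and 53.1 in high flow. Both static libraries were above the other 4. NFKB1 fell 1.37-fold under low flow (log2 fold change -0.45, SE 0.11, adjusted p = 0.0196) and 1.38-fold under high flow (-0.47, SE 0.11, adjusted p = 0.00903). The flow rates differed by -0.02, with an interval from -0.24 to 0.21. Its low flow call was lost without static replicate 1 (adjusted p = 0.0823), static replicate 2 (0.11) or low flow replicate 2 (0.247), and the high flow call without static replicate 2 (0.0723) or high flow replicate 1 (0.167). NFKB2 had 121.6 and 101.2 CPM in static and stayed between 100.2 and 109.0 in the other 4. RELB lay between 30.6 and 37.9 CPM. For both genes the changes against static passed at neither flow rate, with intervals from -0.31 to 0.13 for NFKB2 and from -0.41 to 0.17 for RELB. With the length and GC offsets NFKB2, whose transcript has a GC content of 62.4%, was called lower under high flow (log2 fold change -0.32, adjusted p = 0.028).

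The inhibitors, which are themselves NF-kB targets, did not move together. NFKBIA encodes IkB alpha, the inhibitor that is remade fastest after activation. It had 46.0 and 42.7 CPM in static, 56.2 and 48.4 in low flow and 43.9 and 41.5 in high flow. Low flow was above the other 4 libraries, by 0.24 on the log2 scale against static, and no comparison passed (adjusted p = 0.176). NFKBIE encodes IkB epsilon. It had 21.1 and 19.3 CPM in static, 15.9 and 14.1 in low flow and 15.5 and 17.0 in high flow, with both static libraries above the rest. NFKBIE fell under low flow (log2 fold change -0.43, SE 0.12, adjusted p = 0.0437), and under high flow the value of -0.31 did not pass (adjusted p = 0.0976), though with the length and GC offsets it was -0.50 and did (0.0218). Its call was lost with only the 4 libraries compared (0.0851) and without any single library, with adjusted p from 0.086 to 0.339, except low flow replicate 1.

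TNFAIP3 encodes an enzyme that edits ubiquitin chains and shuts off signalling to NF-kB. It had 35.5 and 34.2 CPM in static, 31.8 and 25.9 in low flow and 25.5 and 25.3 in high flow. The 3 groups did not overlap. TNFAIP3 fell 1.37-fold under high flow (log2 fold change -0.46, SE 0.12, adjusted p = 0.0145), while the low flow value of -0.27 did not pass (adjusted p = 0.154). The high flow call was lost without any 1 of the 4 libraries compared (static 0.0566 and 0.089, high flow 0.14 and 0.0961), with fold changes of -0.43 to -0.48.

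Of the remaining NF-kB targets BIRC3 was the one called, at both flow rates. BIRC3 encodes an inhibitor of apoptosis that binds TRAF adaptors and adds ubiquitin in TNF receptor signalling. It had 49.1 and 54.0 CPM in static, 38.0 and 34.5 in low flow and 25.0 and 31.5 in high flow. The 3 groups did not overlap. BIRC3 fell 1.42-fold under low flow (log2 fold change -0.51, SE 0.12, adjusted p = 0.0168) and 1.82-fold under high flow (-0.87, SE 0.12, adjusted p = 0.000284). The difference between the flow rates was -0.36, with an interval from -0.60 to -0.11, and did not pass (adjusted p = 0.307). The high flow call passed under all 13 alternatives, with log2 fold changes from -1.05 to -0.70, the one of smallest size being that with the length and GC offsets. Under low flow the adjusted p of BIRC3 was 0.167 when static replicate 2 was left out and 0.091 when low flow replicate 2 was. The transcript of BIRC3 has a GC content of 34.8%.

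The promoter of BIRC3 (chr11:102317234-102317533, plus strand) is given because BIRC3 had the smallest p of all members, and it holds a pair of consensus matches, in capitals.
BIRC3: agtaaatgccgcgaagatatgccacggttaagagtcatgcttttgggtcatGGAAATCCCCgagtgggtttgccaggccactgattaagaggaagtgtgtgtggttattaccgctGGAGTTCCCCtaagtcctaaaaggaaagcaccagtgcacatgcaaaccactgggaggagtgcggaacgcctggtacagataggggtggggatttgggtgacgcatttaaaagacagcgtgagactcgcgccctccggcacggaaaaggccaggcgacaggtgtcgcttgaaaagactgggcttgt

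TRAF1, an adaptor that binds TRAF2 and BIRC3, had 20.0 and 16.4 CPM in static, 14.9 and 14.5 in low flow and 12.3 and 15.7 in high flow. Both static libraries were above the rest, and neither change passed (-0.30, adjusted p = 0.202, and -0.37, adjusted p = 0.0885). The high flow value of TRAF1 passed once length and GC offsets were used (-0.55, adjusted p = 0.0298), with only the 4 libraries compared (0.047) and without low flow replicate 1 (0.044) or 2 (0.0446). ICAM1, the adhesion molecule that binds leukocyte integrins, had 20.3 and 9.30 CPM in static, 18.9 and 31.6 in low flow and 25.4 and 22.1 in high flow. The static libraries were far apart, and the log2 fold change of 0.79 under low flow had an interval from -0.74 to 2.32. TNFAIP2 had 88.2 and 58.1 CPM in static and between 75.7 and 88.6 under flow. IRAK2, a kinase-like adaptor of IL-1 receptor signalling, lay between 27.7 and 36.1 CPM. ICAM1, TNFAIP2 and IRAK2 passed in no comparison. TNFAIP2 under high flow, at 0.26, did pass without static replicate 1 (0.59, adjusted p = 0.00876) and with no expression filter (0.0492).

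**Figure D4:**
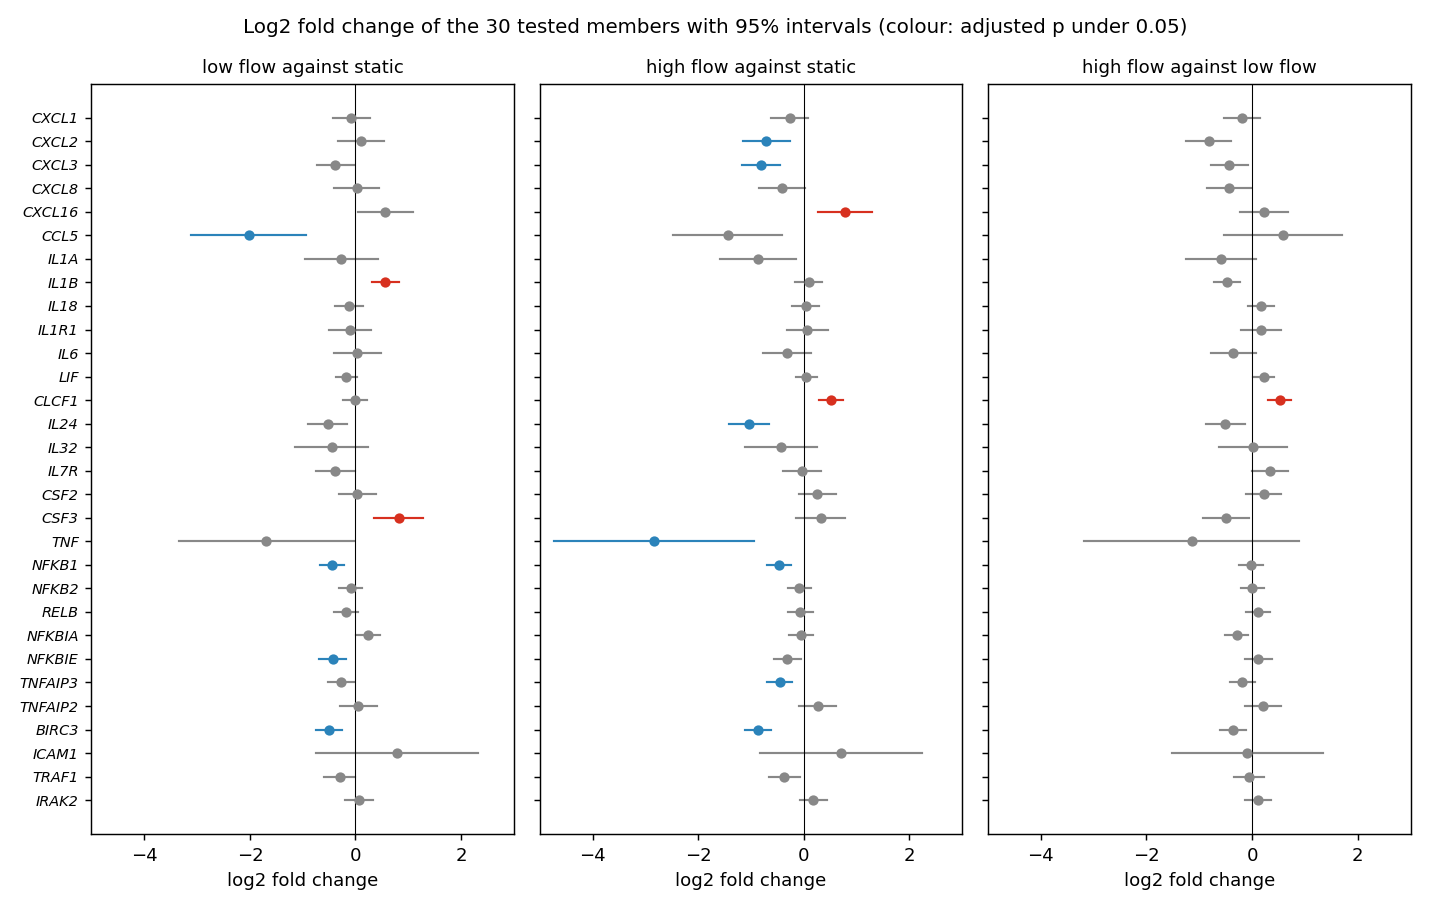
Log2 fold change (points) and 95% interval (lines) of the 30 tested members in the 3 comparisons, by role from top to bottom, coloured red where called higher and blue where called lower. NFKB1 and BIRC3 are blue in both comparisons with static, IL1B and CSF3 are red under low flow only, and CLCF1 is the coloured gene between the flow rates.

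Ordered by the means of their groups, 9 of the 30 tested members went down from static to low flow to high flow, and in 4 of these, CXCL3, IL24, TNFAIP3 and BIRC3, no 2 groups overlapped. Among all tested genes 22.6% were in this order and 4.34% were in it with all 3 groups apart. Low flow had the highest mean for 7 members: CXCL2, CXCL8, IL1B, IL6, CSF3, NFKBIA and ICAM1. Among all genes low flow was highest with high flow lowest in 10.2% and with static lowest in 15.9%. Of these 7 the groups were all apart for IL1B, and the low flow libraries were above all others also for CSF3 and NFKBIA. The order of IL1B with all 3 groups apart held for 2.43% of all tested genes. The share of all genes with low flow above all other libraries was not counted. High flow had the highest mean for 8 members, among them CXCL16 and CLCF1. Over all tested genes high flow was highest with static lowest in 24.7% and with low flow lowest in 9.64%. Groups of 2 libraries often fail to overlap: under high flow 12 members were below static in both libraries and 5 above, and among all tested genes the shares were 29.4% and 29.9%. Under low flow 13 were below, against 26.3% of all genes, and 4 above, against 27.1%. Between the flow rates 12 were lower and 9 higher under high flow, against 21.5% and 21.2%. Called members that fell at both flow rates were 2 in number, NFKB1 and BIRC3, and 0 rose at both. The share of all genes called at both was not counted, and both comparisons share the static libraries. By edgeR 14 members had an unadjusted p under 0.05 in low flow against static and 13 in high flow against static, against 23.5% and 29.4% of all genes. DESeq2 called 2 members higher and 3 lower in low flow, beside 805 and 856 of all genes. In high flow it called 1 higher and 6 lower, beside 1547 and 1213 of all genes. Without low flow replicate 1 the low flow log2 fold changes were 0.81 for CXCL16, -0.67 for IL24, -0.63 for IL7R and -0.43 for TNFAIP3. In the main fit they were 0.56, -0.53, -0.38 and -0.27. Leaving out that library raised the number of all genes called as well as the number of members.

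**Figure D5:**
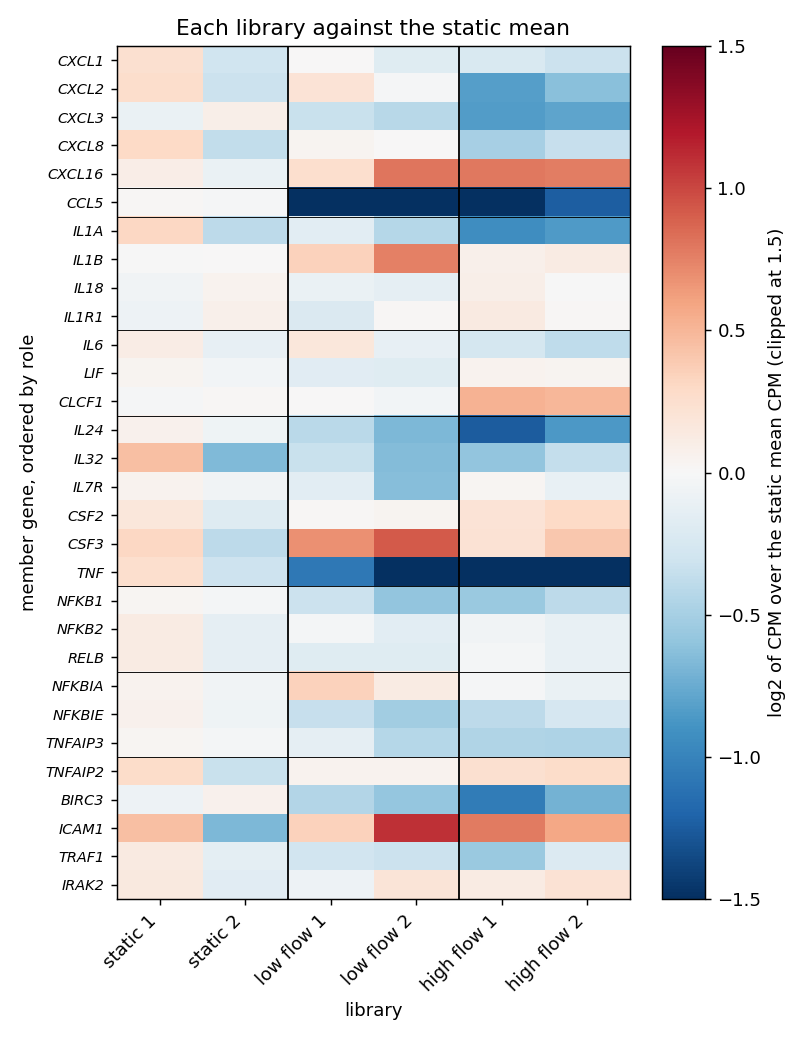
Log2 ratio of each library's CPM to the static mean for the 30 tested members (rows, by role) in the 6 libraries (columns), red for higher and blue for lower, with colours clipped at 1.5. The static replicates differ from each other in ICAM1 and IL32, and BIRC3, CXCL3 and IL24 darken from low to high flow.

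Set beside the promoter sequences, the 9 tested members with the consensus in their window had 5 lower and 0 higher under high flow: CXCL2, CXCL3, NFKB1, TNFAIP3 and BIRC3. Their log2 fold changes ran from -0.87 to -0.05, with a median of -0.46. The 13 tested members without it in their window had 2 lower, IL24 and TNF, and 0 higher, with a range from -2.83 to 0.70 and a median of -0.04. TNF passed the expression filter through static alone, and CXCL8 and ICAM1, which hold near matches, are among the 13. The 8 tested members for which no window was held had 2 higher, CXCL16 and CLCF1, and 0 lower, with a median of 0.04. Of all tested genes 6.43% were called lower and 7.49% higher in that comparison. Under low flow the members with the consensus had 2 lower and a median of -0.27, and those without it had 1 higher and a median of -0.09. Those with no window had 1 higher, 2 lower and a median of -0.15, and the 2 include CCL5, whose fall was fixed in part by the filter. These are descriptions of small groups split after values were known, and no test was made of the split. CXCL1, CXCL2 and CXCL3 share sequence in these windows, so they are not separate examples.

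Other genes of the pathway were called at shares not far from those of all genes. Of 27 genes of the signalling machinery, which are the Rel subunits, IkB kinases, adaptors and regulators, all were tested, and 1 rose and 1 fell under low flow and 2 rose and 2 fell under high flow. That is 7.41% and 14.8% of the 27, against 6.74% and 13.9% of all genes. BCL3, an IkB family protein that acts in the nucleus, had 9.65 and 8.52 CPM in static, 14.1 and 16.9 in low flow and 21.3 and 16.0 in high flow. Static was below the other 4 libraries. BCL3 rose 1.71-fold under low flow (adjusted p = 0.0105) and 2.05-fold under high flow (log2 fold change 1.04, SE 0.16, adjusted p = 0.000746). The high flow call passed under all 13 alternatives, and the low flow call was lost without static replicate 2 (adjusted p = 0.148). NFKBIB, the gene of IkB beta, fell under both flow rates, by 0.58 (adjusted p = 0.0484) and by 0.52 (0.0488) on the log2 scale, and both calls were near the threshold. Without any single library but low flow replicate 1, the low flow call of NFKBIB was lost, with adjusted p from 0.0542 to 0.261, as it was with the offsets (0.0522) and with only the 4 libraries compared (0.0624). Its high flow call was lost without any 1 of the 4 libraries compared (static 0.235 and 0.251, high flow 0.102 and 0.224). TNIP1, a partner of TNFAIP3, rose 1.39-fold and the kinase MAP3K7 fell 1.25-fold under high flow, and neither call held once length and GC offsets were used (adjusted p = 0.0509 and 0.112). Without static replicate 2 or high flow replicate 1 the adjusted p was 0.0984 and 0.157 for TNIP1 and 0.251 and 0.264 for MAP3K7, which also lost its call without high flow replicate 2 (0.119) and with no expression filter (0.0693). RELA, the main activating subunit, lay between 90.2 and 116.2 CPM and passed in no comparison.

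Of 29 receptor genes 16 were tested. Under low flow edgeR called 0 higher and IL20RB lower, 6.25% of the 16 against 6.74% of all genes, and 7 of the 16 had an unadjusted p under 0.05, against 23.5% of all genes. DESeq2 called OSMR higher (0.37, adjusted p = 0.0263), which had missed the edgeR threshold (0.38, adjusted p = 0.0509). Under high flow OSMR, the oncostatin M receptor, and TNFRSF1A, a TNF receptor, rose and IL20RB fell, 18.8% of the 16 against 13.9% of all genes. IL20RB had 7.88 and 8.78 CPM in static, 5.95 and 4.28 in low flow and 4.82 and 5.39 in high flow, and fell by 0.71 on the log2 scale at both flow rates (adjusted p = 0.0277 and 0.0166). OSMR rose 1.28-fold (adjusted p = 0.0399) and TNFRSF1A 1.25-fold (0.0494), and both calls were lost with the offsets (0.0745 and 0.131). Without static replicate 2, high flow replicate 1 and high flow replicate 2 in turn the adjusted p was 0.301, 0.158 and 0.227 for OSMR, 0.324, 0.289 and 0.137 for TNFRSF1A, and 0.174, 0.183 and 0.0726 for the high flow call of IL20RB. TNFRSF1A also missed the threshold with RLE (0.0501) and upper quartile normalization (0.0564). The low flow call of IL20RB was lost with only the 4 libraries compared (0.066) and without any single library but low flow replicate 1, with adjusted p from 0.0603 to 0.285.

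Of 30 further NF-kB target genes 20 were tested, and 1 rose and 1 fell under low flow and 2 rose and 2 fell under high flow. That is 10% and 20% of the 20, against 6.74% and 13.9% of all genes. IRF1, a transcription factor induced by interferon and by NF-kB, had 64.6 and 56.1 CPM in static, 94.6 and 81.9 in low flow and 92.8 and 94.9 in high flow. It rose 1.46-fold under low flow (adjusted p = 0.00681) and 1.56-fold under high flow (0.00108), and the high flow call passed under all 13 alternatives. The low flow call of IRF1 was lost without static replicate 2 (adjusted p = 0.105). CEBPD, a transcription factor of the acute phase response, had 6.56 and 7.39 CPM in static and between 3.04 and 4.30 under flow, and fell 1.79-fold and 1.95-fold (adjusted p = 0.0187 and 0.00497). For CEBPD the low flow call was lost without static replicate 1 (adjusted p = 0.0531), static replicate 2 (0.179) or low flow replicate 2 (0.108) and the high flow call without static replicate 2 (0.0918) or high flow replicate 2 (0.0798). PTX3, a secreted pattern recognition protein, fell 1.29-fold under high flow (adjusted p = 0.0424), and IL11, of the IL-6 family, rose 1.47-fold (0.0496). Both were lost with the offsets (0.135 and 0.0841) and without static replicate 1 (0.261 and 0.114), static replicate 2 (0.0651 and 0.342) or high flow replicate 1 (0.324 and 0.312), PTX3 also without high flow replicate 2 (0.102) and IL11 with upper quartile normalization (0.0526). Between the flow rates 0 genes of the 3 lists passed by edgeR, and 3 of the 27, 1 of the 16 and 3 of the 20 had an unadjusted p under 0.05, against 9.62% of all genes. DESeq2 called MAP3K14 and IL11 higher there. IL11 had 0.62 by both tools, with an adjusted p of 0.248 by edgeR and 0.0182 by DESeq2, and it passed in edgeR with no expression filter (6.87e-06) and without low flow replicate 1 (0.00213).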

How the data were processed

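Per the labels' protocols, RNA was extracted with TRIzol and poly(A) libraries were made with a stranded mRNA kit. The authors deposited raw counts per gene symbol, 1 column per library, and alignment with STAR to hg38 and counting with featureCounts are named in the submitters' processing notes, without versions, settings or annotation. Columns were matched to samples by the column names in the labels.

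Counts of all 60591 genes were filtered (edgeR default, minimum count 10), which left 20676, and scaled by TMM. A robust quasi-likelihood model from edgeR 4.0.16 (R 4.3.3) was fitted to the 6 libraries jointly, leaving 3 residual degrees of freedom. Tests were two-sided, with Benjamini-Hochberg adjustment over all tested genes and a threshold of 0.05. Intervals of fold changes are 95% intervals from the same test. The fit was checked on simulated counts of 20676 genes, with 67, 67 and 66 of them changed 1.5-, 2- and 3-fold. For high flow against static 58.2%, 89.6% and 100% of these were called, with 26 false calls. For low flow against static it was 64.2%, 79.1% and 97%, with 11 false calls. Between the flow rates it was 76.1%, 92.5% and 93.9%, with 16. Part of the 1.5-fold changes was missed, so a value that did not pass does not show an absence of change. In each comparison the false calls were a larger share of all calls than the threshold of 0.05 allows for on average. An adjusted p under 0.05 is therefore a weaker guard against false calls here than its value implies. Gene positions, exon lengths, GC contents and shared 50-base stretches came from GENCODE 29 (GRCh38), in which all 33 members matched 1 gene. Library totals ran from 17822642 to 53279537, so 1 count was worth 0.0188 to 0.0551 CPM. Exact intervals of count ratios used scipy 1.17.1.

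Alternatives were RLE and upper quartile normalization, no expression filter, DESeq2 1.42.0, only the libraries compared, the replicate number as a block, offsets for length and GC content, and leaving out each library. The members and lists were chosen with earlier results of these data known. All members were named. Of each of the 3 further pathway lists up to 4 passing genes per comparison were named, by p, and RELA and MAP3K14 were added after their values were seen. Promoters were printed for the members with the smallest p that had a window. Protein sequences were not used here.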

Additional observations from a re-analysis of the deposited data

How the results depend on the processing

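The number of members called changed when single libraries were left out. Leaving out each library in turn gave 0 to 3 higher and 0 to 7 lower for low flow against static, 0 to 3 higher and 1 to 8 lower for high flow against static, and 0 to 1 higher and 0 to 1 lower between the flow rates. The number of members called under low flow dropped without static replicate 2 or low flow replicate 2, and so did the number of all genes called. The changes in these counts are therefore not particular to the members. With an arm reduced to 1 library, that library is assumed to vary like the other groups. With no expression filter, high flow had 4 members above static and 4 below low flow. Beside these stood 2221 and 73 of all genes, with 1549 and 19 in the main fit. DESeq2 gave 1 higher under high flow, beside 1547 of all genes. The length and GC offsets gave 1 higher under high flow and 0 between the flow rates, beside 939 and 30 of all genes. Only the 4 libraries compared gave 1 higher under low flow and 0 between the flow rates, beside 267 and 24. In the main fit 672 genes were higher under low flow and 50 between the flow rates. The cause was not tested. With the replicate number as a block 1 member was higher under low flow, 1 under high flow and 0 between the flow rates. Beside these stood 411, 1252 and 42 of all genes. Calls also lost with this block were CXCL2, CXCL16, PTX3, OSMR, MAP3K7 and TNFRSF1A under high flow and CSF3, NFKBIE and IL20RB under low flow. Between the flow rates CLCF1 lost its call and IL11 gained one. The replicate numbers do not pair the libraries by the labels. The deviations of same-numbered libraries correlated at -0.249 for static and low flow, -0.0116 for static and high flow and 0.105 for low flow and high flow. The other counts were within 1.5 times those reported. Of 1595 gene values under alternatives 67 had the opposite sign, by at most 0.335 on the log2 scale, and 0 of these were called on either side. TNF did not pass the filter with only the 4 libraries compared, nor did CCL5 in high flow against low flow, so those values were not obtained. Members below 1 CPM are limited by depth.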
